A study of Arabidopsis thaliana with 12 samples.

Results

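The genes described here are mitotic genes of Arabidopsis thaliana, taken from a list of 46 loci. The list was set before the tests below, but with earlier results of these data known. It names A- and B-type cyclins, B-type cyclin-dependent kinases, Aurora kinases, spindle checkpoint genes, mitotic kinesins and cytokinesis genes. A locus was included where the platform annotation gives it a probe set of its own, which holds for 14 of the 46. These are the 3 Aurora kinases, the checkpoint gene BUBR1, 8 of the 15 kinesins and both genes of 3xHMG-box proteins. None of the 13 listed cyclins, of the 4 B-type cyclin-dependent kinases or of the 5 other cytokinesis and microtubule genes has a named probe set, so those 22 genes, 7 kinesins and 3 checkpoint genes were not analysed here. The 14 genes have 1 probe set each. For comparison, 13286 genes of the whole table have a named probe set.

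RNA came from 2 zones of roots of 6-day-old seedlings, the meristematic and the elongation zone, cut apart by hand under a microscope. The plants were Col-0 (wild type), the mutant upb1-1, and 35S::UPB1-3YFP #2 in upb1-1, a single transgenic line meant to express UPB1 fused to YFP from a strong and broadly active viral promoter. That line is called OX here, and it shares the upb1-1 mutation with the mutant plants. All plants grew on the same standard medium with sucrose. About 60 roots went into each of the 2 biological replicates of the 6 groups, and each of the 12 RNA samples was amplified in a 2-cycle procedure and hybridised to its own ATH1 array.

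Plant cells enter mitosis when cyclin-dependent kinases bound to A- and B-type cyclins become active, and many genes needed at that point are switched on together in late G2. Aurora kinases phosphorylate histone H3 and spindle proteins, the spindle checkpoint delays anaphase until chromosomes are attached, and kinesins move along the microtubules of the spindle and of the phragmoplast, the plant structure that builds the new cell plate. In the root tip, cells divide in the meristem and stop dividing before they elongate. UPB1 is a transcription factor of the basic helix-loop-helix class. The study asks how the change from proliferation to differentiation is controlled.

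The values are linear MAS5 signals, and array medians lay between 50.8 and 67.6. UPB1 (AT2G47270) gave signals between 528 and 1379 on the 4 Col-0 arrays, between 8.53 and 16.8 on the 4 upb1-1 arrays and between 28.1 and 55.2 on the 4 OX arrays. The OX signals lay above all those of upb1-1, the background of the line, and far below those of Col-0. A signal below wild type goes against the label of an overexpressing line. Whether the probe set lies within the transgene was not stated in the sources used here. Of 7 markers of the stem cell niche and meristem, BBM alone has a named probe set. BBM gave signals between 35.4 and 116 on the meristematic and between 1.47 and 17.4 on the elongation arrays. Of 7 root hair markers, the 2 with a probe set (EXPA7 and EXPA18) gave summed signals between 789 and 899 on Col-0 meristematic arrays and between 15.4 and 30.6 on OX meristematic arrays. No listed marker of root cap (5 genes) or xylem (6 genes) has a named probe set. Control probe sets at the 3' and 5' ends of housekeeping transcripts report on the length of the amplified RNA. Their mean log2 ratio of 3' over 5' signal, called the control ratio here, was 2.22 for Col-0 meristems and 2.04 for upb1-1 meristems. It was 4.17 on OX meristematic arrays and between 3.93 and 4.04 in the 3 elongation groups.

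**Figure D1:**
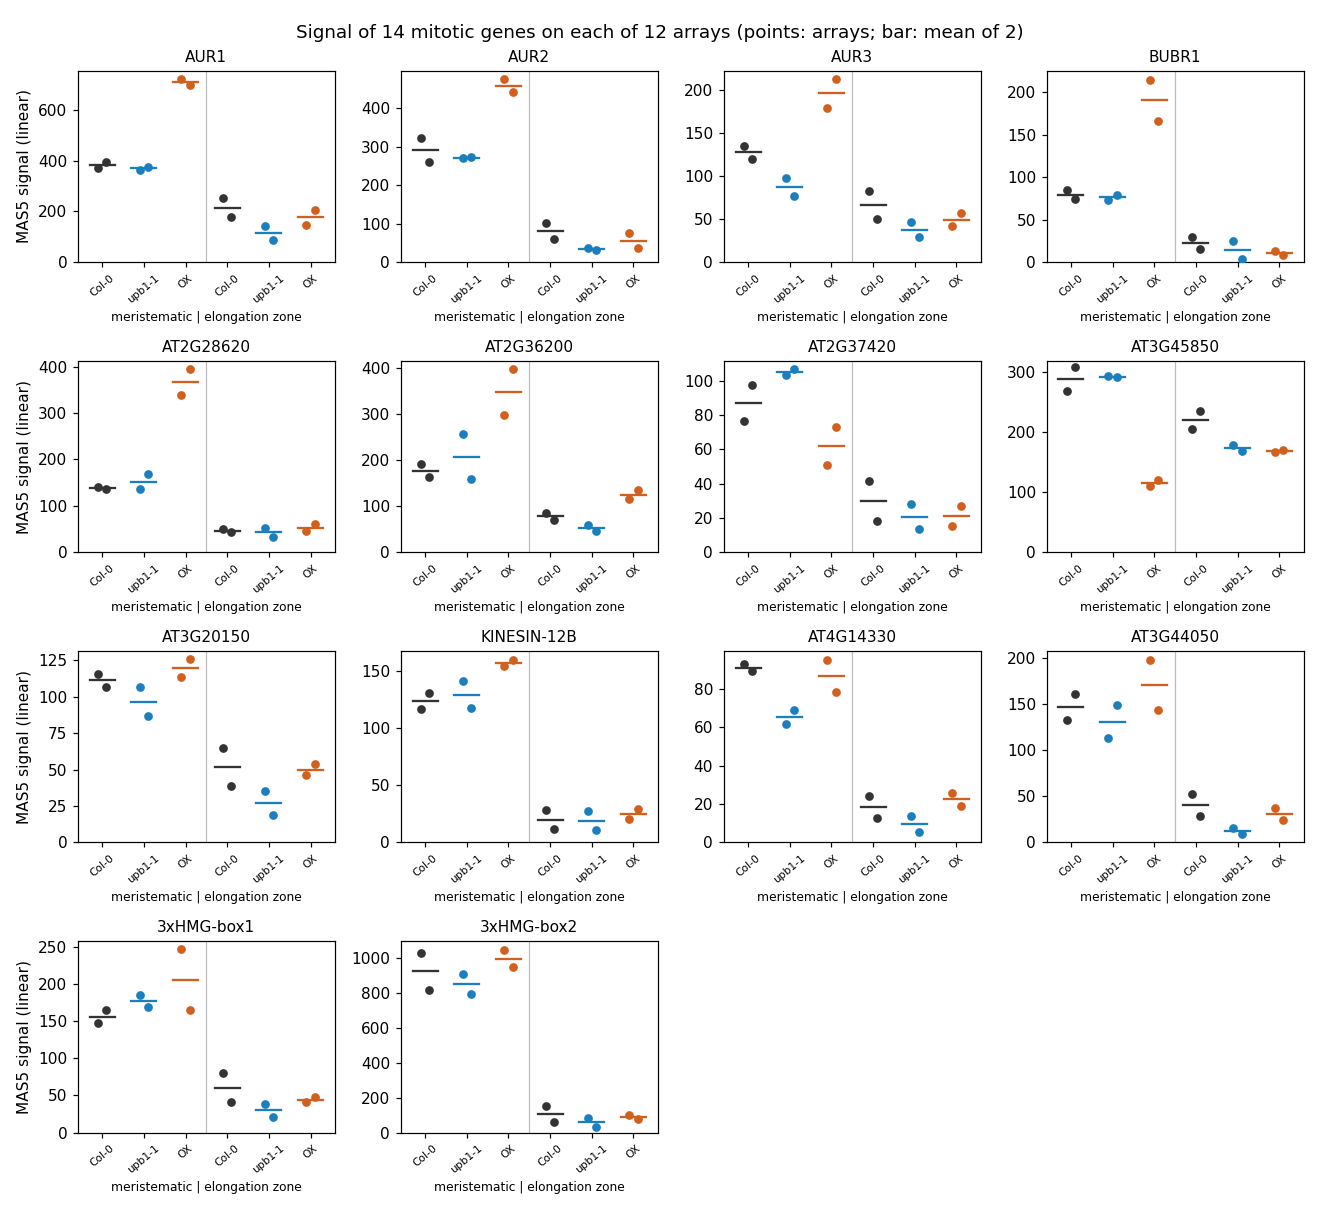
MAS5 signal (linear scale, own axis for each gene) of the 14 mitotic genes on the 12 arrays, with 1 point per array and a bar at the mean of the 2 arrays of a group, and with meristematic groups left and elongation groups right of the line. Within each genotype both meristematic arrays lie above both elongation arrays in every panel, except for OX in the panel of AT3G45850, where they lie below.

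Log2 changes below are on the log2(signal + 16) scale, which understates the change of dim probe sets. A gene is said to have risen or fallen where the Benjamini-Hochberg adjusted p of limma over 15834 tested probe sets was below 0.05. All 14 genes passed the filter on low signals, which asked for the 40th percentile of an array on at least 2 of 12 arrays. All 14 reached it on every meristematic array, but only 10 reached it on at least 2 elongation arrays. BUBR1 and AT2G37420 reached it on 1 elongation array and KINESIN-12B and AT4G14330 on none, so these genes entered the tests through the meristematic arrays. For these genes the filter favoured a fall in the elongation zone, and their zone p-values are no independent support for one.

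The comparison of the zones asks how far the mitotic genes separate the pieces cut as meristem from those cut as elongation zone. In Col-0, 13 of the 14 genes fell in the elongation zone and none rose, against a background of 22.8% of all tested probe sets that fell and 17.5% that rose. The median change of the 14 was -1.26, and that of all tested probe sets was -0.06. In upb1-1 all 14 fell, with a median of -1.69 against -0.04, where 28.5% of all probe sets fell and 24.1% rose. In OX 13 fell and 1 rose, with a median of -1.89 against -0.11, where 29.6% fell and 23.9% rose. Both meristematic arrays lay above both elongation arrays for 14 genes in Col-0, 14 in upb1-1 and 13 in OX, as they did for 39.4%, 40.8% and 42.2% of all tested probe sets. Among the 10 genes that reached the filter on elongation arrays, 9 fell in Col-0, 10 fell in upb1-1, and in OX 9 fell and 1 rose. Because the list was chosen with earlier results of these data known, these counts are no independent support for a zone difference. Fewer dividing cells and less of these RNAs per cell cannot be told apart in such pieces.

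The zones of Col-0 differed by 1.71 in the control ratio and those of upb1-1 by 2.00, while in OX the elongation value was 0.19 lower than the meristematic one. The part of the control ratio in the zone falls of Col-0 and upb1-1 was not tested.

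**Figure D2:**
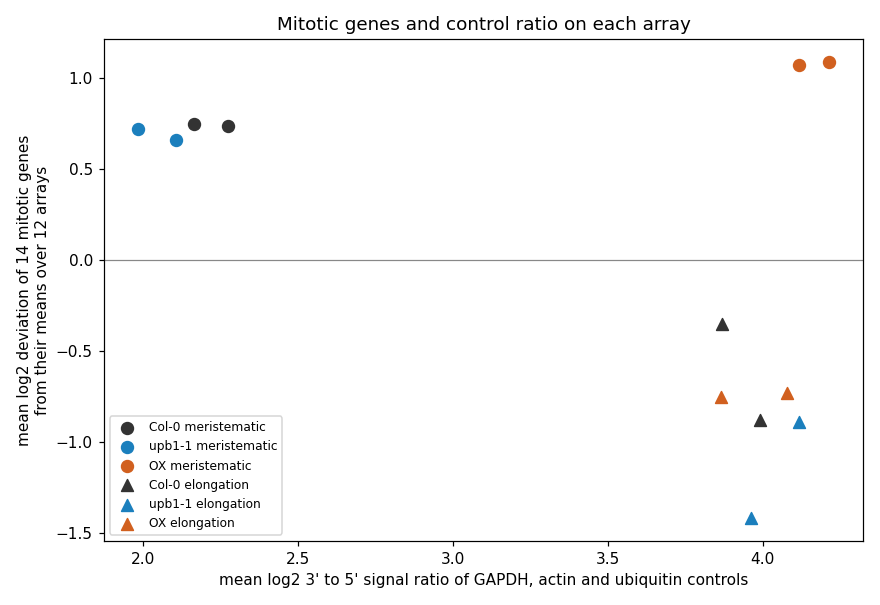
Mean log2 deviation of the 14 mitotic genes from their means over the 12 arrays (vertical) against the mean log2 3' to 5' ratio of the controls (horizontal), with 1 point per array. The 2 OX meristematic arrays lie highest, at 1.09 and 1.07, and the elongation arrays lie between -1.42 and -0.35.

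The 3xHMG-box proteins bind mitotic chromosomes. On the log2(signal + 16) scale, 3xHMG-box2 had the widest zone difference of the 14 genes in each genotype. By the ratio of mean signals BUBR1, whose elongation signals were low, had the widest in OX. 3xHMG-box2 gave 1029.6 and 819.5 on Col-0 meristematic arrays against 154 and 61.5 on Col-0 elongation arrays. It gave 907 and 792 against 85.3 and 31.0 in upb1-1, and 1047 and 948 against 98.8 and 75.7 in OX. The zones were far apart in each genotype, and the mean elongation signal was 11.7%, 6.84% and 8.75% of the meristematic one in Col-0, upb1-1 and OX. The gene fell by 3.02 in Col-0 (SE 0.35, adjusted p = 1.75e-05), fell by 3.65 in upb1-1 (adjusted p = 1.76e-06) and fell by 3.30 in OX (adjusted p = 2.18e-06). 3xHMG-box1 fell too, with changes of -1.22, -2.10 and -1.85 in the same order.

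Among the Aurora kinases, AUR1 and AUR2 act at the spindle and the cell plate, and AUR3 at centromeres. AUR2 showed the widest zone difference of the 3. It gave 322 and 261 on Col-0 meristematic and 102 and 59.7 on Col-0 elongation arrays, 269 and 272 against 36.7 and 32.2 in upb1-1, and 475 and 442 against 75.1 and 37.0 in OX. No elongation array came near a meristematic one. AUR2 fell in Col-0, upb1-1 and OX, with changes of -1.69, -2.51 and -2.77 and adjusted p = 0.000169, 3.57e-06 and 8.13e-07. The mean AUR1 signal in the elongation zone was 56.0% of the meristematic one in Col-0, 31.0% in upb1-1 and 24.8% in OX. Its meristematic means were 384 in Col-0 and 712 in OX, and its elongation means 215 and 177. The difference in zone change from Col-0 did not pass for upb1-1. It passed for OX, but not under every alternative. AUR1 fell in Col-0, upb1-1 and OX, with changes of -0.81 (adjusted p = 0.011), -1.59 (4.9e-05) and -1.93 (6.88e-06). AUR3 fell with changes of -0.83, -0.95 and -1.71.

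BUBR1, a BUB1-related gene of the spindle checkpoint, was dim in the elongation zone. It gave 84.5 and 74.2 on Col-0 meristematic arrays against 30.1 and 15.1 on elongation arrays, 73.2 and 78.8 against 24.3 and 3.91 in upb1-1, and 214 and 166 against 13.0 and 8.15 in OX. The elongation mean was 28.5%, 18.5% and 5.56% of the meristematic one. BUBR1 fell with changes of -1.33, -1.70 and -2.95 (adjusted p = 0.00404, 0.000428 and 2.85e-06). The gene entered the tests through its meristematic signals, so the filter favoured such falls.

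Of the 8 kinesins, motor proteins of microtubules, 7 fell in Col-0, 8 fell in upb1-1, and in OX 7 fell and 1 rose. KINESIN-12B (AT3G23670, also PAKRP1L), a kinesin of the phragmoplast, gave 117 and 131 on Col-0 meristematic arrays against 28.2 and 11.8 on elongation arrays. Its elongation mean was 16.1%, 14.7% and 15.9% of the meristematic one in Col-0, upb1-1 and OX. It fell in all 3, with changes of -1.99, -2.09 and -2.09. The loci AT2G28620, AT2G36200, AT2G37420, AT3G20150, AT4G14330 and AT3G44050, listed as kinesins, fell in all 3 genotypes. Their changes ranged from -0.94 for AT3G20150 in Col-0 to -2.48 for AT2G28620 in OX.

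AT3G45850, another locus listed as a kinesin, differed from the others in its zone pattern. It gave 268 and 308 on Col-0 meristematic and 205 and 234 on Col-0 elongation arrays, 293 and 291 against 178 and 168 in upb1-1, and 109 and 119.5 against 167 and 169.7 in OX. The meristematic arrays were the higher ones in Col-0 and upb1-1 and the lower ones in OX, with no overlap between zones in any genotype. The change was -0.37 in Col-0 (SE 0.17, adjusted p = 0.101), which did not pass. The gene fell by 0.70 in upb1-1 (adjusted p = 0.00314) and rose by 0.50 in OX (adjusted p = 0.0234). The OX rise ended without any 1 of its 4 arrays, with adjusted p between 0.0512 and 0.112.

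The order of the 14 genes by zone change was compared between genotypes, which share no array. Spearman's rho was 0.79 between Col-0 and upb1-1, 0.71 between Col-0 and OX, and 0.62 between upb1-1 and OX, and without AT3G45850 it was 0.74, 0.64 and 0.53. These are descriptions over genes that are no independent replicates and that share the added 16 and each probe set's own brightness.

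Several zone calls rested on single arrays, and that of AUR3 in Col-0 also on the scaling, with adjusted p = 0.0591 after quantile normalization and 0.0657 after median centring. Without Col-0 elongation replicate 2, AUR1 (-0.57), AUR3 (-0.54), BUBR1 (-1.05), AT2G37420 (-0.82) and AT3G20150 (-0.66) did not pass in Col-0. Fewer of all tested probe sets passed as well in that fit. AUR1, AUR3 and AT2G37420 also did not pass without Col-0 meristematic replicate 2 (adjusted p = 0.0684, 0.0527 and 0.0593). AUR3 and AT3G20150 did not pass without Col-0 meristematic replicate 1 (0.108 and 0.0615). AUR3 in upb1-1 did not pass without meristematic replicate 1 (0.0624) or elongation replicate 2 (0.0595). AT2G37420 in OX did not pass without elongation replicate 1 (0.0776) or meristematic replicate 2 (0.0795). No direction changed.

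**Figure D3:**
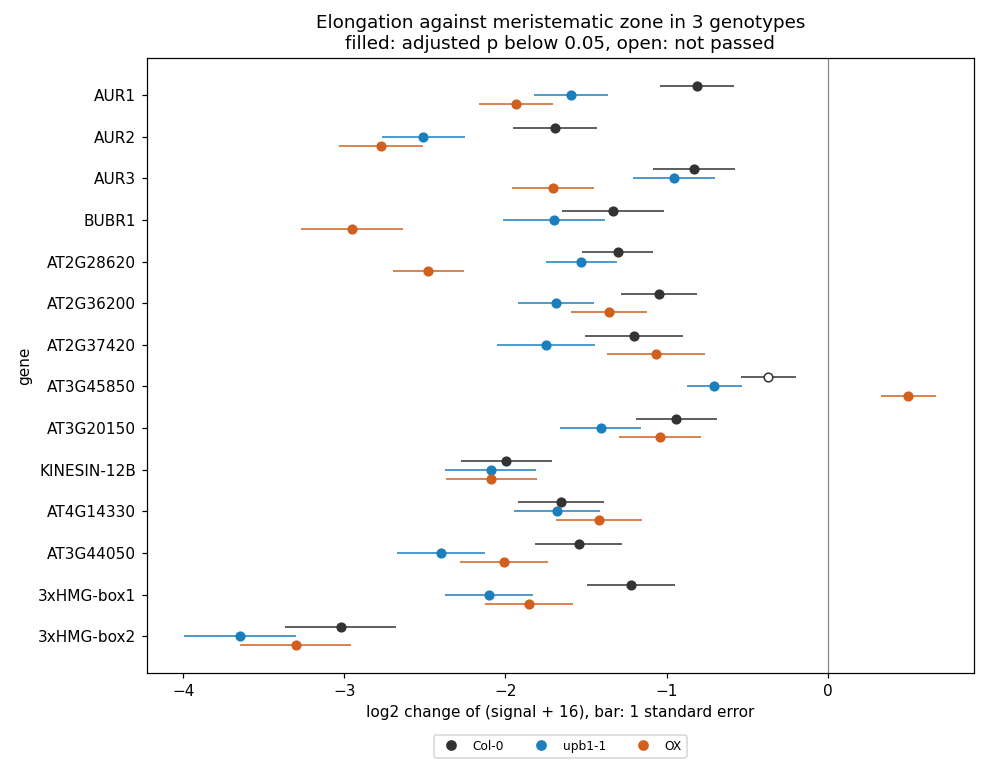
Log2 change from the meristematic to the elongation zone for each of the 14 genes in Col-0, upb1-1 and OX, with bars of 1 standard error, filled points for an adjusted p below 0.05 and open points otherwise. All points but that of AT3G45850 in OX lie left of 0, and 3xHMG-box2 lies farthest left in each genotype.

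The 2 elongation replicates of Col-0 and of upb1-1 stood apart for these genes. Replicate 1 was the higher array for 13 of 14 genes in Col-0 and for 14 of 14 in upb1-1, with a median log2 difference (replicate 1 minus replicate 2) of 0.58 and 0.52. Over all tested probe sets replicate 1 was higher for 52.6% in Col-0 and 54.0% in upb1-1. In OX elongation, replicate 1 was higher for 5 genes and replicate 2 for 9. In the meristematic zone, replicate 1 was higher for 8 genes in Col-0, 7 in upb1-1 and 7 in OX.

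Setting upb1-1 meristems against those of Col-0 asks whether loss of UPB1 changes the mitotic genes where cells divide. None of the 14 genes passed in limma, where 0.0126% of all tested probe sets rose and 0.0253% fell. No mitotic gene had an unadjusted p below 0.05, against 264 of the 15834 tested probe sets. Changes ranged from -0.48 to 0.24, with a median of -0.05 and a median of 0.00 over all tested probe sets. AUR3 had the smallest p, with 136 and 119.9 in Col-0 against 97.7 and 77.0 in upb1-1 (-0.48, SE 0.25, adjusted p = 1). AUR1 gave 371 and 396 in Col-0 and 363 and 377 in upb1-1, a change of -0.05 (SE 0.23), and those arrays overlapped. With 2 arrays a group, small changes would not be detectable. The adjusted p also depends on how many probe sets pass, which was 6 here and 7834 in OX against Col-0 meristems. A smaller unadjusted p was thus needed here, and changes as large as some called in OX could fail to pass. The counts of called genes in these 2 comparisons are therefore not on the same footing.

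In OX against Col-0 in the meristematic zone, AUR1, BUBR1 and the kinesin loci AT2G28620 and AT2G36200 rose, AT3G45850 fell, and 9 genes did not pass. This comparison asks how the line labelled as overexpressing UPB1 differs from wild type where cells divide. The rises were 28.6% of the 14 genes against 26% of all tested probe sets, and the fall was 7.14% against 23.5%. The share that rose was near the background and the share that fell was below it. The median change was 0.33, and 0.10 over all tested probe sets.

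AT2G28620 gave 142 and 136 on the Col-0, 137 and 167 on the upb1-1, and 339 and 394 on the OX meristematic arrays. The OX arrays were above all others, and the mean OX signal was 2.64 times that of Col-0. The gene rose by 1.30 (SE 0.22, adjusted p = 0.000224). AUR1 gave 371 and 396 in Col-0 against 723 and 699.9 in OX, with no overlap and a rise of 0.86 (SE 0.23, adjusted p = 0.00581). AT2G28620, AUR1 and AT3G45850 passed under all 13 alternatives tried. BUBR1 gave 84.5 and 74.2 against 214 and 166 and rose by 1.105 (SE 0.32, adjusted p = 0.00978). AT2G36200 gave 191 and 163 against 298 and 398 and rose by 0.90 (SE 0.24, adjusted p = 0.0055).

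AT3G45850 moved the other way. Its 109 and 119.5 on OX meristematic arrays were the lowest of all 12 arrays, against 268 and 308 in Col-0 and 293 and 291 in upb1-1. The mean Col-0 signal was 2.52 times that of OX, and the gene fell by 1.22 (SE 0.17, adjusted p = 4.34e-05). AUR2 (322 and 261 against 475 and 442) gave 0.63 with adjusted p = 0.0556, and AUR3 (136 and 119.9 against 179.6 and 213) gave 0.56 with adjusted p = 0.0793. The phragmoplast gene KINESIN-12B gave 0.31 and the 3xHMG-box genes gave 0.12 and 0.35, none of which passed.

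The control ratio was 1.95 higher on OX than on Col-0 meristematic arrays. BBM rose by 1.12 and the root hair genes EXPA7 (-4.27) and EXPA18 (-3.79) fell between the same groups. The part of the control ratio, of stem cells and of root hair cells in the changes of the mitotic genes was not tested. Without Col-0 replicate 2, BUBR1 (1.03) and AT2G36200 (0.80) did not pass, and fewer of all tested probe sets passed as well. BUBR1 also did not pass without OX replicate 1 (0.93, 0.08), nor with a pseudocount of 1 in place of 16 (adjusted p = 0.113). AT2G36200 did not pass without OX replicate 2 (0.70, 0.0692).

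**Figure D4:**
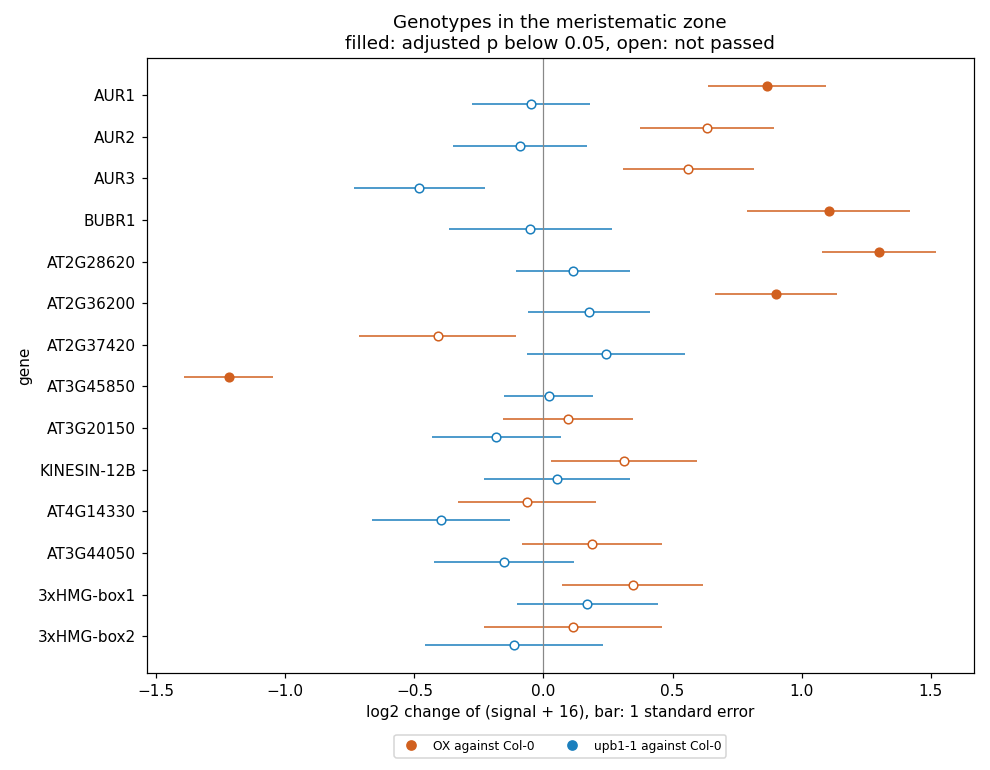
Log2 change in the meristematic zone of OX against Col-0 and of upb1-1 against Col-0 for the 14 genes, with bars of 1 standard error and filled points for an adjusted p below 0.05. The 5 filled points belong to OX, with AT2G28620 at 1.30 and AT3G45850 at -1.22 as the ends, while all upb1-1 points lie between -0.48 and 0.24. Far fewer of all tested probe sets passed for upb1-1, so a smaller unadjusted p was needed there for a filled point. Both comparisons use the same Col-0 arrays.

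Against upb1-1, the background that OX shares, 6 genes rose in OX meristems and 1 fell, where 27.5% of all tested probe sets rose and 24.5% fell. The 3 Aurora kinases, BUBR1, AT2G28620 and AT2G36200 rose and AT3G45850 fell. The rises were 42.9% of the genes. The median change was 0.34, against 0.11 over all probe sets. AUR3 gave 97.7 and 77.0 in upb1-1 against 179.6 and 213 in OX, with no overlap and a rise of 1.04 (SE 0.25, adjusted p = 0.00337). AUR2 rose by 0.72 (SE 0.26, adjusted p = 0.03), a call lost without any 1 of the 4 arrays (adjusted p between 0.0788 and 0.12), with a pseudocount of 1 (0.0659) and with no filter (0.0532). AT2G28620 rose by 1.19 (SE 0.22, adjusted p = 0.000437) and AT3G45850 fell by 1.24 (SE 0.17, adjusted p = 3.54e-05).

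AT2G36200 rose by 0.72 against upb1-1 (adjusted p = 0.0188), with 256 and 159 in upb1-1 against 298 and 398 in OX. It gave 0.40 (adjusted p = 0.256) without upb1-1 replicate 2 and 0.53 (0.16) without OX replicate 2. BUBR1 rose by 1.15 (adjusted p = 0.00721), and gave 0.98 (0.065) without OX replicate 1 and an adjusted p of 0.0962 with a pseudocount of 1. Between these groups the control ratio differed by 2.12. The OX arrays are the same ones as in the comparison with Col-0.

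Setting elongation zones of upb1-1 against those of Col-0 asks whether mitotic genes persist outside the meristem when UPB1 is lost. AUR1, AUR2 and AT3G44050, a locus listed as a kinesin, fell, and no gene rose. All 14 changes were negative, from -1.01 to -0.04, with a median of -0.53 and one of -0.02 over all tested probe sets. For the same genes, the 2 replicates differed by a median of 0.58 within Col-0 and of 0.52 within upb1-1. The genes moved together between replicates, so the 14 signs are not 14 separate observations. Of all tested probe sets, 9.45% fell and 9.36% rose. The arrays of 8 genes did not overlap, all lower in upb1-1, where 28.5% of all probe sets were lower without overlap.

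AUR1 gave 253 and 177 on the Col-0 elongation arrays against 142 and 87.6 on those of upb1-1. The ranges did not overlap, and the gene fell by 0.83 (SE 0.23, adjusted p = 0.0214). AUR2 gave 102 and 59.7 against 36.7 and 32.2 and fell by 0.91 (SE 0.26, adjusted p = 0.0259). AT3G44050 gave 52.7 and 29.1 against 15.1 and 8.62 and fell by 1.01 (SE 0.27, adjusted p = 0.0191). Both upb1-1 arrays of that gene lay below the 40th percentile of their arrays.

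All 3 elongation calls were lost without Col-0 replicate 1 and without upb1-1 replicate 2, and 0 genes then passed in limma. AUR1 then gave -0.59 (adjusted p = 0.223) and -0.53 (0.214), AUR2 -0.59 (0.27) and -0.84 (0.134), and AT3G44050 -0.70 (0.216) and -0.84 (0.141). Of all tested probe sets, 3.35% and 4.56% were called in these fits. Without Col-0 replicate 2, 7 genes fell, where 18.3% of all probe sets were called in either direction. Without upb1-1 replicate 1, 8 genes fell, where 30.0% were called. When only the 4 arrays compared were fitted no gene passed, with adjusted p = 0.126 for AUR1. In the fit of all arrays, 6 of the 14 genes and 5285 of the 15834 tested probe sets had an unadjusted p below 0.05. The control ratio differed by 0.11 between the groups. The summed signal of the root hair markers EXPA7 and EXPA18 lay between 1741 and 3272 in upb1-1 and between 206 and 383 in Col-0, and its part in these falls was not tested.

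When elongation zones of OX were set against Col-0, none of the 14 genes passed in limma, where 7.46% of all tested probe sets fell and 6.64% rose. Changes ranged from -0.52 for BUBR1 to 0.59 for AT2G36200, the only one of the 14 genes with an unadjusted p below 0.05. Among the 15834 tested probe sets, 4555 had an unadjusted p below 0.05. AT2G36200 gave 84.6 and 70.6 in Col-0 against 115 and 135 in OX, without overlap (SE 0.24, adjusted p = 0.111). The median was -0.27, and it was 0.09 without Col-0 replicate 1. The control ratio differed by 0.04 between these groups.

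In OX against upb1-1 in the elongation zone, AT2G36200 was the gene that passed. It gave 58.6 and 45.3 in upb1-1 against 115 and 135 in OX and rose by 1.05 (SE 0.24, adjusted p = 0.00509). It was thus higher in OX than in upb1-1 in both zones. Of all tested probe sets, 11.6% rose and 12.6% fell. The median of the 14 changes was 0.44, against 0.07 over all tested probe sets, and 12 changes were positive. The 2 upb1-1 elongation replicates differed by a median of 0.52 for these genes, so the signs are not separate observations. Without upb1-1 replicate 1, 6 genes rose, where 33.6% of all probe sets were called in either direction. Without OX replicate 2, 2 genes rose, where 15.7% were called. AUR1 gave 142 and 87.6 against 148 and 205 (0.57, adjusted p = 0.0801) and AT3G44050 gave 15.1 and 8.62 against 37.1 and 23.8 (0.73, adjusted p = 0.0612). EXPA7 (-4.81) and EXPA18 (-5.52) fell between the same groups. BBM fell too (-0.80), but gave only 15.1 and 17.4 in upb1-1 and 1.47 and 3.61 in OX. Each of these signals lay below the 40th percentile of its array, so this fall cannot show a change in stem cells. The part of root hair cells and stem cells in the rise of AT2G36200 was not tested.

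**Figure D5:**
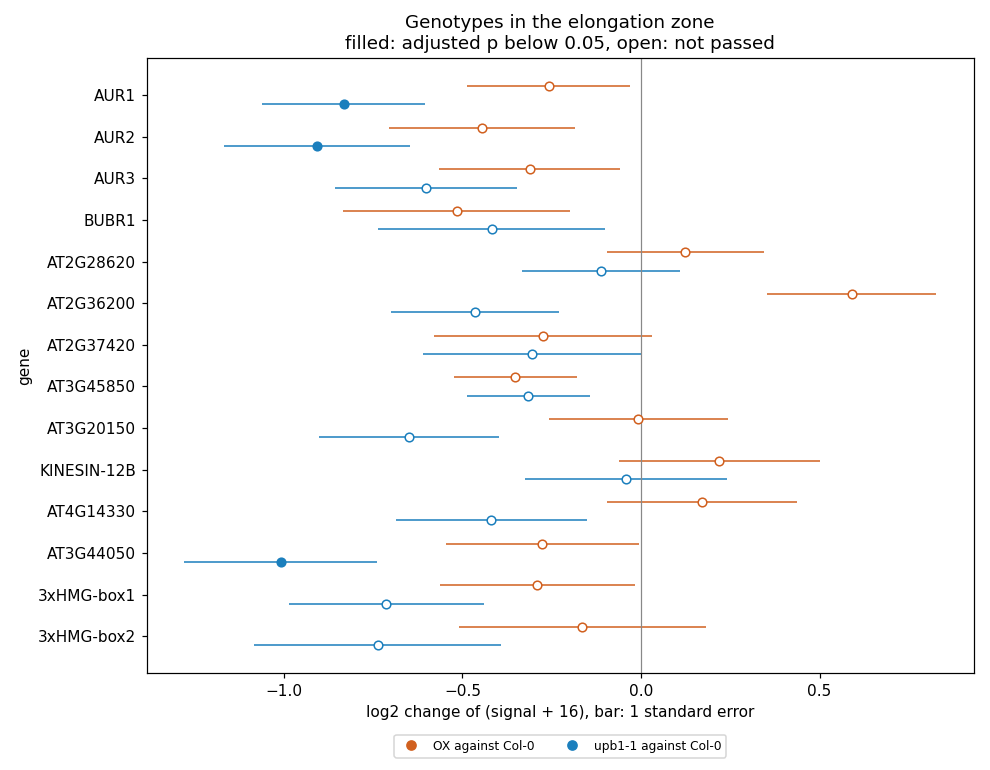
Log2 change in the elongation zone of OX against Col-0 and of upb1-1 against Col-0 for the 14 genes, with bars of 1 standard error and filled points for an adjusted p below 0.05. All upb1-1 points lie left of 0, from -1.01 to -0.04, and the 3 filled ones are AUR1, AUR2 and AT3G44050, while no OX point is filled. Both comparisons use the same Col-0 arrays.

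The interaction of zone and genotype asks whether the step from meristem to elongation zone differs between genotypes. For OX and Col-0, 5 of the 14 genes passed. The change from the meristematic to the elongation zone was more negative in OX for AUR1 by 1.12 (log2 difference -1.12), for AUR2, BUBR1 and AT2G28620, and more positive for AT3G45850. Of all tested probe sets, 10.8% had a lower and 13.2% a higher zone change in OX. Among the 10 genes that reached the filter on elongation arrays, 3 passed with a lower and 1 with a higher zone change in OX. These interactions use the same meristematic arrays as the comparisons above and are not independent of them. The control ratio (elongation minus meristematic) differed by 1.71 in Col-0 and by -0.19 in OX. The part of the control ratio in these interactions was not tested.

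The number of interaction calls depended on single arrays. With 1 array left out, the median difference of the 14 genes for OX and Col-0 ranged from -0.81 to -0.18. Where fewer of the 14 genes passed, fewer of all tested probe sets passed too. For upb1-1 and Col-0, 0 of the 14 genes passed in limma. Of all tested probe sets, 0.783% passed with a lower and 1.48% with a higher zone change in upb1-1. These shares were smaller than for OX, so a smaller unadjusted p was needed to pass. An unadjusted p below 0.05 was seen for 4 of the 14 genes and for 3042 of the 15834 tested probe sets. All 14 differences were negative, with a median of -0.51 against -0.02 over all probe sets. The 2 elongation replicates differed by medians of 0.58 in Col-0 and 0.52 in upb1-1 for these genes. The 14 signs are thus not 14 separate observations. AT3G44050 gave -0.85 (SE 0.38, adjusted p = 0.241) and AUR1 gave -0.78 (SE 0.32, adjusted p = 0.2). Without upb1-1 elongation replicate 1 more of all tested probe sets passed, and a mitotic gene did too.

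Other cell cycle genes were covered thinly. Of 55 further loci listed for MYB3R factors, D-type cyclins, CDKA and CKS, cyclin-dependent kinase inhibitors with WEE1, the anaphase-promoting complex, and cohesin with condensin, 7 have a named probe set and 6 were tested. In the zone comparisons 2 of the 6 fell and 1 rose in Col-0, 1 fell in upb1-1, and 2 fell and 1 rose in OX. Of all tested probe sets, 22.8%, 28.5% and 29.6% fell and 17.5%, 24.1% and 23.9% rose in Col-0, upb1-1 and OX. HBT, a CDC27 subunit of the anaphase-promoting complex, fell in all 3 genotypes, by 1.20, by 1.04 and by 0.59. CDC27a, its paralogue, gave 0.20, 0.03 and 0.05 and did not pass in any. ATSMC2, a condensin gene, gave -0.67, -0.85 and -0.40 and did not pass in any. AT3G57060, listed with cohesin and condensin, fell in Col-0 (-0.64) and OX (-1.09) and did not pass in upb1-1 (-0.53). AT4G15890 of the same list rose in Col-0 (0.67) and did not pass in upb1-1 (0.15) or OX (0.01). In OX against Col-0 meristems 1 of the 6 rose, AT4G15890, by 0.52, and 1 fell, with a median of 0.18. Of all tested probe sets, 26% rose and 23.5% fell there.

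The gene that fell was SIM, a plant inhibitor of cyclin-dependent kinases known for its part in endoreduplication of leaf hairs. SIM gave 933 and 981 on Col-0, 1129 and 1046 on upb1-1, and 114 and 95.6 on OX meristematic arrays. The elongation arrays gave 1424 and 1049 in Col-0, 1122 and 1044 in upb1-1, and 1146 and 1366 in OX. Low signal was thus seen on the OX meristematic arrays and on no other pair. SIM fell by 3.01 in OX against Col-0 meristems (SE 0.18, adjusted p = 1.09e-08) and gave 0.03 in the elongation zone (adjusted p = 0.926). The interaction was 3.05 (SE 0.26, adjusted p = 2.77e-06). The control ratio moved between the same meristematic groups, and its part was not tested.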

How the data were processed

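Transcript levels were measured on 12 ATH1 arrays, 2 per group. The deposited values are signal intensities on a linear scale, made by the authors; the submitters' processing notes name MAS5. Every array has the same trimmed mean (250.0 with 2% trimmed at each end). The 64 control probe sets were left out, signals were taken to log2 after adding 16, and 15834 of 22746 probe sets were tested, those at or above percentile 40 of an array in at least 2 cases. Groups were compared with limma 3.58.1 in R 4.3.3 (lmFit on 6 group means over all 12 arrays, eBayes with trend, two-sided, prior of 8.75 degrees of freedom), with Benjamini-Hochberg adjustment over all tested probe sets and a threshold of 0.05. The fit was tested on simulated data. The number of arrays limits the precision, and p-values measure the spread between biological replicates as labelled.

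Genes were named through the platform annotation (14016 probe sets) and a RefSeq gene table of TAIR10.1, used for names only. The genes and lists were chosen with earlier results of these data known. Genes were named in the text by a fixed rule: any listed mitotic gene with a probe set, up to 4 genes of each further list by smallest p, and UPB1. The alternatives changed the added constant, scaling, filter, trend, arrays fitted, replicate block and single replicates. Fits of the arrays of 1 zone were chosen after seeing the data.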

Additional observations from a re-analysis of the deposited data

Results flagged for a closer look

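The zone change differed between OX and Col-0, by a test of the difference itself, for 5 of the 14 mitotic genes, where 10.8% of all tested probe sets had a lower and 13.2% a higher zone change in OX. The differences (OX minus Col-0, log2) were -1.12 for AUR1 (SE 0.32, adjusted p = 0.0211), -1.08 for AUR2 (SE 0.37, adjusted p = 0.0455), -1.62 for BUBR1 (SE 0.45, adjusted p = 0.0176), -1.18 for AT2G28620 (SE 0.31, adjusted p = 0.0139) and 0.87 for AT3G45850 (SE 0.24, adjusted p = 0.0185), from limma. Of 16 alternatives, AUR2 lost the call in 10, AUR1 in 6, BUBR1 in 5, AT2G28620 in 3 and AT3G45850 in 3, and without Col-0 meristematic replicate 2 the count was 0. Where fewer of these genes passed with 1 array left out, fewer of all tested probe sets passed too. Among the 10 genes that reached the filter on elongation arrays, 3 passed with a lower and 1 with a higher zone change in OX. The zone difference of the control ratio was 1.71 in Col-0 and -0.19 in OX, and its part was not tested. Groups of 2 arrays are too small for a search for single outlying arrays.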

How the results depend on the processing

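Of 512 values of single called genes under settings other than leaving out an array, 492 kept the call, 20 lost it and 0 changed direction, and of 268 values with 1 array left out, 211 kept it, 57 lost it and 0 changed direction. Most of these values belong to zone comparisons, whose calls were mostly kept. Calls between genotypes and in the interaction were lost more often, so the totals overstate how firm those are. The number of mitotic genes called in OX against upb1-1 elongation zones (1) was 2 with a pseudocount of 1, 3 after quantile normalization and 3 after median centring. Of all tested probe sets, 22.3%, 25.3% and 25.0% were called in these fits. In upb1-1 against Col-0 elongation zones the number (3) was 5 after quantile normalization, 0 with only the arrays compared and 0 with only the arrays of the zone. There 18.9%, 4.78% and 7.98% of all tested probe sets were called. In the interaction of zone with OX the number (5) was 3 with a pseudocount of 1, where 21.6% were called. With 1 array left out, the counts ranged from 3 to 5 in OX against Col-0 and from 5 to 6 in OX against upb1-1 meristems, from 0 to 8 in upb1-1 against Col-0, from 0 to 0 in OX against Col-0 and from 1 to 6 in OX against upb1-1 elongation zones. They ranged from 0 to 0 in upb1-1 against Col-0 meristems, from 8 to 13 for the zones in Col-0, from 13 to 14 in upb1-1 and from 12 to 13 in OX, and from 0 to 1 and from 0 to 6 in the interactions with upb1-1 and OX. The median change in OX against Col-0 elongation zones (-0.27) ranged from -0.54 to 0.095 with 1 array left out, the latter without Col-0 replicate 1. In several of the fits with 1 array left out the share of all tested probe sets that passed changed too. The causes were not tested. The labels do not say that replicate numbers pair arrays, and deviations of same-numbered arrays correlated between -0.15 and 0.28 over 15 pairs of groups. The elongation zones of Col-0 and upb1-1 gave 0.28, and those of Col-0 and OX gave -0.15. The replicate block has 1 term for all groups, so it cannot follow both. With the replicate block, OX against Col-0 meristems gave 6 called genes in place of 5, and the other 10 counts were equal. Median centring moved the median of all probe sets by over 0.1 and left it at 0.21 for the zones in Col-0. Each gene has 1 probe set, so the choice between probe sets could not be varied.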
